A study of Mus musculus with 24 samples.

Results

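On day 7 of the reprogramming of neural precursor cells (NPCs) into induced pluripotent stem cells (iPSCs), IFNγ-treated X-GFP–medium cells were compared with control X-GFP–high cells. These populations were chosen as near each other in naive pluripotency genes, 1 reached with interferon γ (IFNγ) and 1 without it. The levels were not equal. The sum of 7 naive markers was 88591 to 89660 normalized counts in the treated and 104919 to 109518 in the control population. Every gene with a mean above 10 normalized counts over the 4 libraries of the comparison was taken, which were 15591 of the 37315 genes in the table, and 4 of the 24 libraries of the series. Of the genes nearest to that limit, Tmem54 was inside with a mean of 10.03 and 1810063I02Rik outside with a mean of 9.97. The populations are called IFNγ medium and control high below, and a normalized count is the number of read pairs on a gene divided by 1 size factor per library.

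Both populations came from the PaX line, a single hybrid 129S1/SvImJ and CAST/EiJ mouse embryonic stem cell (ESC) line that was differentiated to NPCs. An X-GFP reporter in the Hprt locus marks activity of the M. musculus X chromosome (X mus), which a truncation of Tsix makes the preferred X for inactivation. All groups carried the doxycycline-inducible MKOS cassette (cMyc, Klf4, Oct4, Sox2), its transactivator rtTA in the Sp3 locus and a Nanog promoter–RFP reporter, and were grown with doxycycline, ascorbic acid and LIF on male irradiated fibroblasts. The treated arm had 10 ng/ml IFNγ from day 0 to 5 and none from day 5 to 7, the control arm had none, and at day 7 SSEA1+ cells of each arm were sorted by GFP into negative, medium and high gates. The groups thus differ both in arm and in gate, and from these 4 libraries the share of each in a difference cannot be told apart. The libraries are numbered 1 and 2 in each group and described as independent replicates, but whether they came from separate cultures was not stated, so the p-values measure the spread between these libraries, which may be in part technical. The reporter reads X activity at 1 locus, and whether both gates of an arm were sorted from the same dish was not stated.

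As background, naive pluripotency is the state of ESCs, held by factors such as Nanog, Esrrb and Klf2, in which both X chromosomes of a female cell are active. Reprogramming to it involves a mesenchymal-to-epithelial transition, activation of the pluripotency genes and, late, reactivation of the silent X. IFNγ binds its receptor, activates the kinases Jak1 and Jak2, and through transcription factors such as Irf1 switches on genes of defense against pathogens and of antigen presentation. GAS elements, spelled TTCNNNGAA, are bound early after the cytokine, and IRF factors bind the interferon-stimulated response element, which holds a GAAA block, any 2 bases and another GAAA block (here the double GAAA motif).

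The 4 libraries had 26540528 to 28221404 reads on genes. In all 7 naive ESC markers together IFNγ medium had 88591 to 89660 normalized counts and control high 104919 to 109518, between the 65219 to 67645 of control X-GFP–medium cells and the 121184 to 123849 of their IFNγ X-GFP–high counterparts. Of 14 fibroblast markers the sum was 1799 to 2000 in IFNγ medium and 3462 to 3943 in control high, with Dcn in front, and without Dcn and Fbln1 518 to 529.6 and 441 to 462. Of these 14 genes 7 were tested, of which 2 were higher in IFNγ medium and 2 lower, while Postn, Twist2, Lum and the Y-linked genes were under the limit. The 4 Y-linked genes among them, which only the male feeders can give, summed to 2.24 to 12.5 and 2.06 to 4.27, against 218 to 253 in day 2 control cells. Of 11 NPC markers the sums were 2166 to 2456 and 2125 to 2156.

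The promoters of some IFNγ effector and antigen presentation genes are shown first. Each of these genes was higher in IFNγ medium than in control high, groups that differ in gate as well as in arm. The cytokine had been withdrawn 2 days before. Each line gives the 250 bases before a RefSeq start, 5′ to 3′ on the strand of the gene, on GRCm38.p6, with letters matching the double GAAA motif or TTCNNNGAA on either strand in capitals (the second spelling reads alike on both). Tgtp2 lies at chr11:49064213-49064462 (minus), Igtp at chr11:58199306-58199555 (plus), Irgm2 at chr11:58214727-58214976 (plus), Irgm1 at chr11:48871421-48871670 (minus), Gbp2 at chr3:142620413-142620662 (plus) and Psmb8 at chr17:34197945-34198194 (plus).
Tgtp2: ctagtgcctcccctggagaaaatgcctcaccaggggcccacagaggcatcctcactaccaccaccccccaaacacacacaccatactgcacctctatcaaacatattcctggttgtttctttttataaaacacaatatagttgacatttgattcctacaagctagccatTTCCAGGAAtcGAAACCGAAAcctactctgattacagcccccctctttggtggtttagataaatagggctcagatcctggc
Igtp: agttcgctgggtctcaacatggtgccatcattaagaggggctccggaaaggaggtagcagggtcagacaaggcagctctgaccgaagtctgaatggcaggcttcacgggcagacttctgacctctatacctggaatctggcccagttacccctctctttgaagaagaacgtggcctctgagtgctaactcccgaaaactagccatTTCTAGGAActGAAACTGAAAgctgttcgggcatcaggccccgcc
Irgm2: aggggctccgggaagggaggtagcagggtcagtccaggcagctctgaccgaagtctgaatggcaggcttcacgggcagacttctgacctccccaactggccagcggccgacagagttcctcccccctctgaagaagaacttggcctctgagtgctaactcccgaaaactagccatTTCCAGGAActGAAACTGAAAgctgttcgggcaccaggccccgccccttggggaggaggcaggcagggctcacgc
Irgm1: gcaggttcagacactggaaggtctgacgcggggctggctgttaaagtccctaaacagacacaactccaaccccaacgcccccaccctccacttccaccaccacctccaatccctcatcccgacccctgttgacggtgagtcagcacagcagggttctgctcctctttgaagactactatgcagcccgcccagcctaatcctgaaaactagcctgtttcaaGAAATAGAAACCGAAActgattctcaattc
Gbp2: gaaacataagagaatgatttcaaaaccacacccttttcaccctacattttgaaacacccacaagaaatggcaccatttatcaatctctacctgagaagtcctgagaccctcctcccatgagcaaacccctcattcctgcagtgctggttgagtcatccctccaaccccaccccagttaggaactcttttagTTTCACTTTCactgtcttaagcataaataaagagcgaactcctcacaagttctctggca
Psmb8: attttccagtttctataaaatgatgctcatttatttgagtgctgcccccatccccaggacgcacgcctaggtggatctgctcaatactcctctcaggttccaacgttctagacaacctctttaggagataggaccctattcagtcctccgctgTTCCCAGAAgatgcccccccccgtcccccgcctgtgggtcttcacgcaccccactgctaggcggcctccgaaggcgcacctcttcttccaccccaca
Tgtp2, Igtp and Irgm2 held a TTCNNNGAA match 2 bases before the double GAAA motif, Irgm1 held 2 overlapping copies of it, Gbp2 held 1 on the opposite strand, and Psmb8 held TTCNNNGAA alone. The double GAAA motif stood in 9 of 11 windows (81.82%) of the 10 tested IFNγ effector genes with a RefSeq window. It stood in 978 of all 32851 windows (2.98%) and in 341 of the 14224 windows (2.4%) of tested genes. Of the effector genes that were higher, 7 of 9 windows (77.78%) held it, so effector genes that did not pass held it too. In tested antigen presentation genes it stood in 3 of 19 windows (15.79%), and in tested IFNγ signaling genes in 3 of 14 (21.43%). Of windows of genes higher in IFNγ medium 2.26% held it, and of genes lower 2.61%. TTCNNNGAA stood in 5 of the 11 effector windows and in 7.02% of all windows. H2-Q7, Psmb9 and Tap1, which were also higher in IFNγ medium and are not shown, held neither motif in their windows. A match describes letters and is no evidence of binding, and 11148 of the tested genes had a window under their symbol.

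IFNγ medium and control high differed in 5828 of the 15591 genes tested (37.4%, limma, Benjamini-Hochberg adjusted p under 0.1, two-sided). Of these, 2718 (17.4%) were higher in IFNγ medium and 3110 (19.9%) lower. Both shares are the background for the member counts of every gene list in this comparison, and several lists lie near them. For counts between IFNγ X-GFP–high and control X-GFP–medium cells, the background was 37.6% higher and 34.6% lower. The median log2 fold change of the called genes was 0.47 in size, with 460 genes higher by more than 1 and 587 lower by more than 1. Libraries of the groups did not overlap in 10419 genes (66.8%), so that separation on its own says little with 2 libraries a group. All fold changes here are on the log2(normalized count + 1) scale and are IFNγ medium minus control high. In bulk RNA, fewer cells of a kind and less RNA per cell cannot be told apart. Without control high library 1 there were 1637 higher and 1783 lower genes, and without its library 2 there were 1783 and 1931.

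**Figure D1:**
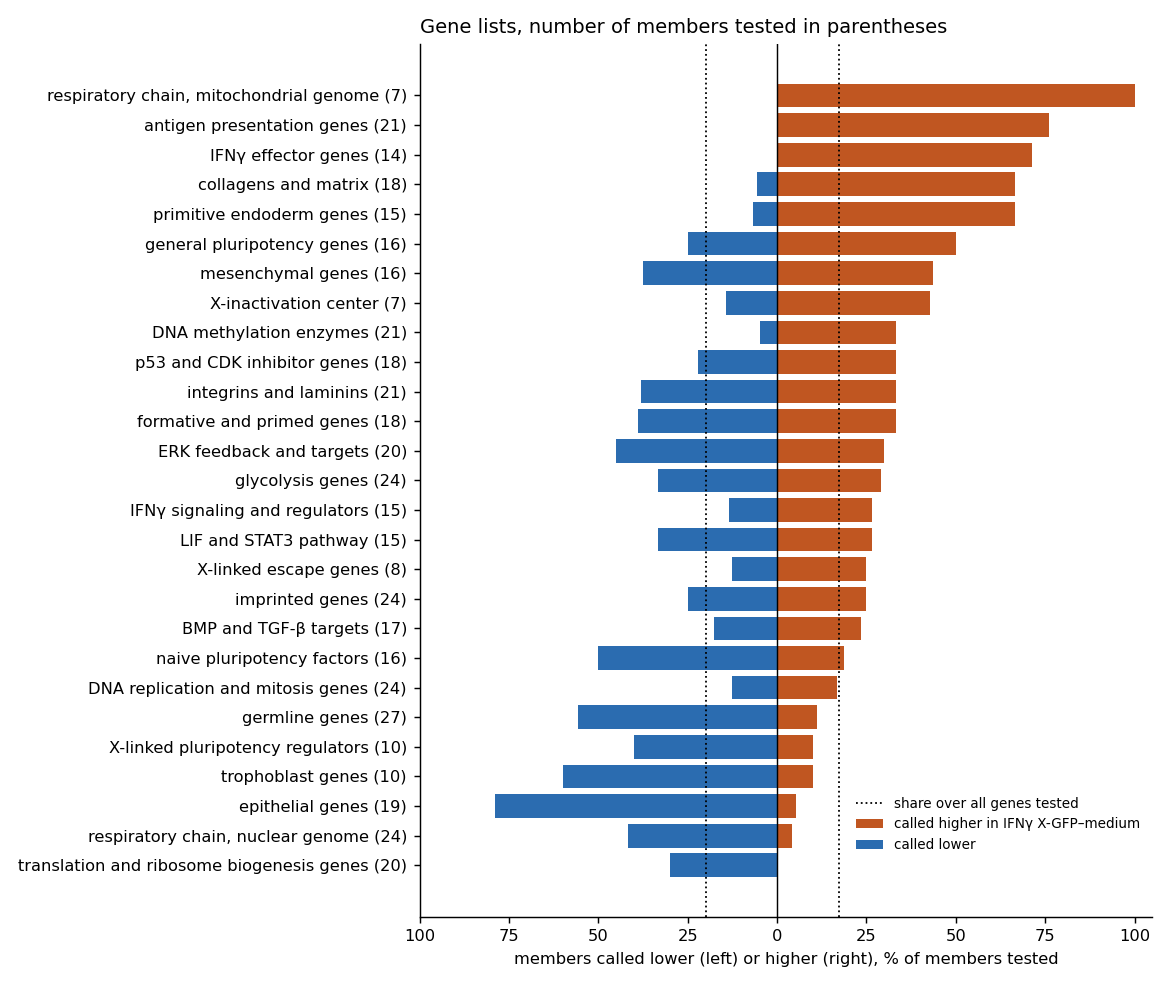
Share of the tested members of each gene list called higher (right) or lower (left) in IFNγ medium than in control high, in percent of members tested, for the 27 lists with at least 5 tested members. Dotted lines mark the 17.4% and 19.9% of all genes tested. Antigen presentation and IFNγ effector genes reach far to the right, and epithelial, trophoblast and germline genes far to the left.

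IFNγ effector genes, which act downstream of the receptor, were the group with the highest median. Of 14 tested, 10 were higher in IFNγ medium (all genes 17.4%), 4 did not pass, and the median log2 fold change was 1.06 (all genes −0.01). Of the 26 listed genes 23 were in the table under their symbol, and the others of these were under the limit of 10. Between IFNγ X-GFP–high and control X-GFP–medium cells, 4 of 13 tested effector genes were higher and 6 lower, with a median of −0.25. Of all genes there, 37.6% were higher and 34.6% lower. Tgtp2, a GTPase of the IRG family against intracellular parasites, had 43.7 and 61.7 normalized counts in IFNγ medium and 1.03 and 2.13 in control high. The control values stand for 1 read and 2 reads, so the ratio of summed reads, 98 against 3, is 33.7 with an exact 95% counting interval of 11.2 to 166. Its near-identical paralog Tgtp1 was not tested, and reads that fit both could not be assigned. Tgtp2 had the largest fold change of the list (log2 4.39 ± 0.42, adjusted p = 0.000128).

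Gbp2, a guanylate-binding protein that attacks the vacuoles of pathogens, had 438 and 544 normalized counts in IFNγ medium and 107 and 107 in control high (log2 2.18 ± 0.15, adjusted p = 2.94e-05). Gbp3 of the same family had 116 and 153 against 28.9 and 31.0 (log2 2.12 ± 0.23, adjusted p = 0.000227). Both were thus over 4-fold higher, with no overlap (66.8% of all genes had none). The IRG family followed, with 222 and 332 against 81.5 and 66.2 for Irgm1 (log2 1.87 ± 0.22, adjusted p = 0.000298). Igtp had 165 and 164 against 37.1 and 51.2 (log2 1.89 ± 0.22, adjusted p = 0.000296), and Irgm2 132 and 193 against 37.1 and 47.0 (log2 1.91 ± 0.24, adjusted p = 0.0005). These 3 genes rose by similar amounts, 3.66- to 3.76-fold. The annotated spans of Igtp and Irgm2 overlap on the plus strand of chromosome 11, so reads in the shared part are uncertain. At day 5, at the end of treatment, Gbp2 had 6984 ± 346 (SD, n = 2) in IFNγ-treated and 834 ± 86.1 in control cells, and Tgtp2 1271 ± 313 and 5.19 ± 0.197, so IFNγ medium at day 7 lay under the treated day 5 cells and, for Tgtp2, above the control day 5 cells.

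Set beside this, control high against control X-GFP–medium cells differed in 64.1% of all genes (31.4% higher, 32.7% lower), and IFNγ medium against control X-GFP–medium cells in 62.9% (33.3% higher, 29.6% lower). Gbp2 had 346 and 293 normalized counts in control X-GFP–medium cells, −1.56 in log2 from medium to high (adjusted p = 8.29e-08, limma), and between the medium gates IFNγ medium was higher by 0.61 (adjusted p = 0.00298, limma). Tgtp2 had 1.98 and 1.03 in control X-GFP–medium cells, where IFNγ medium was higher by 4.43 (adjusted p = 2.18e-05, limma). Igtp and Irgm2 had 50.4 and 52.7 and 45.5 and 56.8 there. For Gbp2 the control high level was thus the lower of both control gates, while for Tgtp2 both control gates were at 1 or 2 reads a library. These comparisons share libraries with the one described and are set beside it as values.

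Antigen presentation genes were higher as a group. Of 21 tested, 16 were higher in IFNγ medium and 5 did not pass, with a median of 0.69. Between IFNγ X-GFP–high and control X-GFP–medium cells, 5 of the 21 were higher and 9 lower (all genes there 37.6% and 34.6%), with a median of −0.14. In IFNγ medium against control high, the inducible subunits of the immunoproteasome, which cuts peptides for MHC class I, came first. Psmb8 had 226 and 325 normalized counts in IFNγ medium and 25.8 and 29.9 in control high (log2 3.24 ± 0.23, adjusted p = 3.03e-05). Psmb9 had 137 and 165 against 18.6 and 20.3 (log2 2.89 ± 0.23, adjusted p = 5.62e-05). The transporter that loads these peptides was also higher, Tap1 with 551 and 603 against 158 and 159 (log2 1.86 ± 0.12, adjusted p = 2.21e-05) and Tap2 with 300.04 and 342 against 109 and 108 (log2 1.55 ± 0.15, adjusted p = 0.00012).

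Psmb9 (chr17:34181987-34187764, minus), Tap1 (chr17:34187553-34197225, plus), Psmb8 (chr17:34197721-34201454, plus) and Tap2 (chr17:34203527-34216321, plus) are neighbors on GRCm38/mm10, and the annotated ends of Psmb9 and Tap1 overlap on opposite strands. The strand setting of the counting was not stated, so reads in that overlap are uncertain. H2-Q7, a nonclassical class I gene, had 90.7 and 108 against 8.25 and 17.1 (log2 2.95 ± 0.34, adjusted p = 0.000322), and as a member of a near-identical family its reads are uncertain as well. The class II gene H2-Aa had 21.3 and 15.7 against 6.19 and 7.47, at low counts (log2 1.30 ± 0.39, adjusted p = 0.0325). Without control high library 1 its adjusted p was 0.148, and without IFNγ medium library 1 0.139. All 6 members named had no overlap between the groups, as had 66.8% of all genes tested.

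These genes differed unequally between the control gates. Psmb8 had 134 and 115 normalized counts in control X-GFP–medium cells, so it differed by −2.12 from medium to high (adjusted p = 3.79e-07, limma) and by 1.12 between the medium gates (adjusted p = 0.00059, limma). Psmb9 had 17.8 and 19.6 there, a difference of 0.05 between control gates (adjusted p = 0.901, limma) and of 2.94 between the medium gates (adjusted p = 4.64e-06, limma). For Psmb9 and H2-Q7 the control gates were at like levels, H2-Q7 with 14.8 and 12.4 in control X-GFP–medium cells, while Psmb8 and Gbp2 were lower in control high than in control X-GFP–medium cells. The sum over 7 macrophage markers was 999.6 to 1223 in IFNγ medium and 1143 to 1286 in control high, most of it Cd68.

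**Figure D2:**
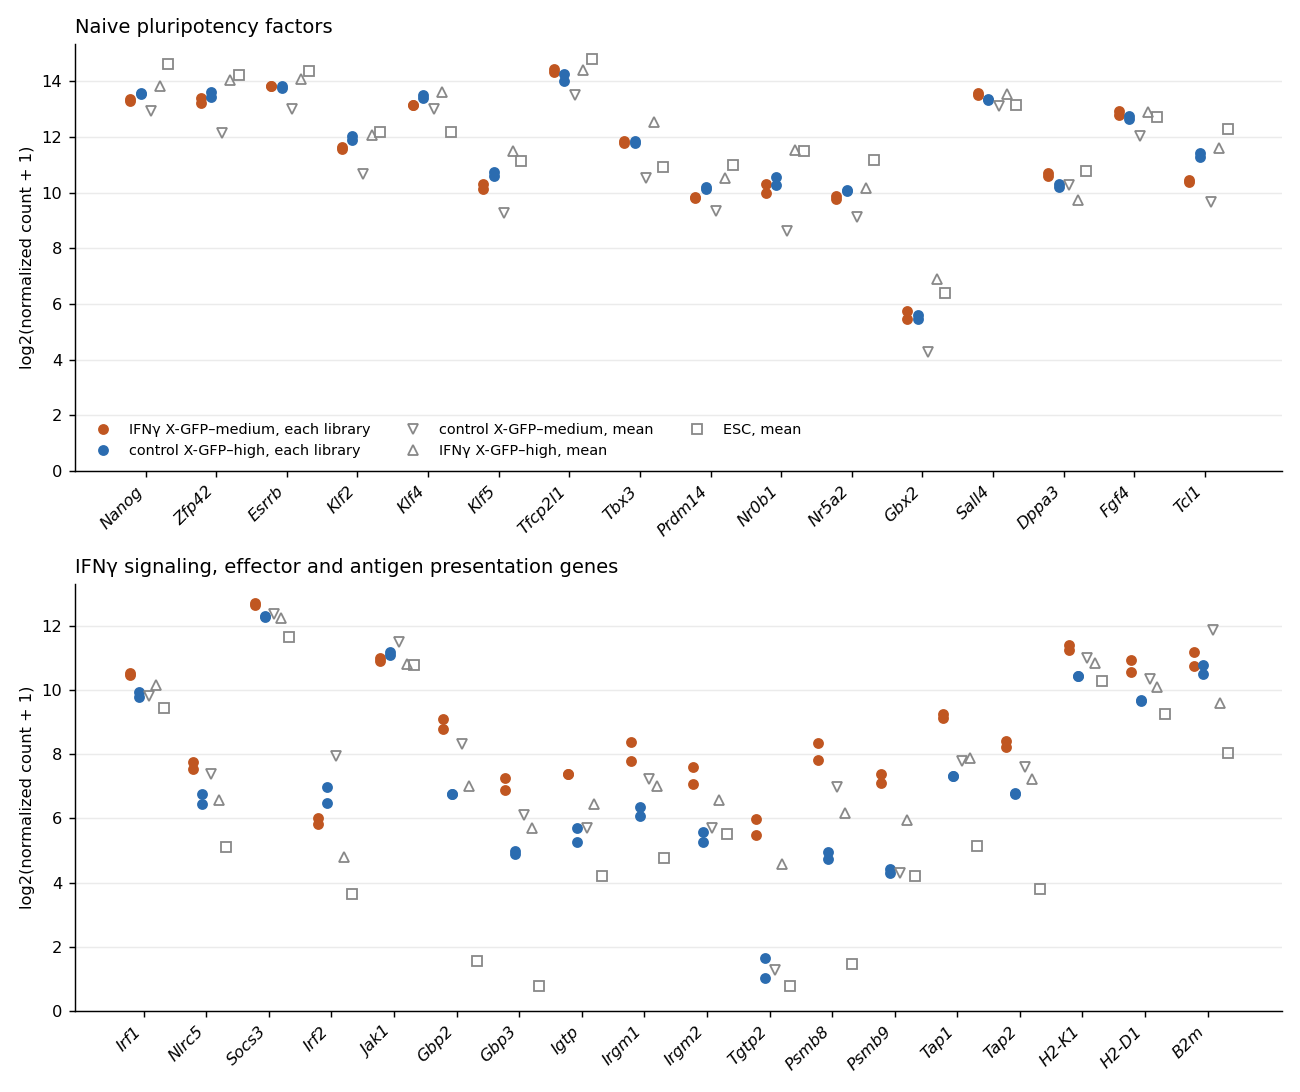
Naive pluripotency factors (top) and genes of IFNγ signaling, effector function and antigen presentation (bottom), as log2(normalized count + 1). Filled points are the 2 libraries of IFNγ medium (orange) and of control high (blue), and open symbols the means of control X-GFP–medium cells, IFNγ X-GFP–high cells and ESCs. The means of the orange and blue points differ by 0.92 at most in the top panel (Tcl1) and by 4.39 at most in the bottom panel (Tgtp2).

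The signaling part of the pathway differed less than its targets. Of 15 tested receptors, kinases, transcription factors and inhibitors, 4 were higher in IFNγ medium, 2 lower, and 9 did not pass, with a median of 0.19. These counts are near the shares over all genes, 17.4% higher and 19.9% lower. Irf1, a transcription factor that IFNγ induces, had 1413 and 1459 normalized counts in IFNγ medium and 869 and 969 in control high (log2 0.64 ± 0.08, adjusted p = 0.000511). Nlrc5, the transactivator of class I genes on chromosome 8, had 186 and 214 against 107 and 85.4 (log2 1.05 ± 0.18, adjusted p = 0.00252). Socs3, the feedback inhibitor of Stat3 signaling, had 6601 and 6432 against 4878 and 5019 (log2 0.40 ± 0.06, adjusted p = 0.00116).

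Lower were Irf2, a repressor of Irf1 targets on chromosome 8, with 56.0 and 63.8 against 126 and 87.5 (log2 −0.80 ± 0.23, adjusted p = 0.0276), and the kinase Jak1 with 1907 and 2020.0 against 2335 and 2145 (log2 −0.19 ± 0.07, adjusted p = 0.0754). Neither held under every alternative. Without control high library 1 the adjusted p was 0.277 for Irf2 and 0.444 for Jak1, and for Jak1 it was 0.106 without control high library 2 and 0.164 without IFNγ medium library 1. The receptor chains did not pass, Ifngr1 with a fold change of −0.21 and Ifngr2 with 0.19, nor did Jak2 (0.15), Stat2 (0.20), Irf9 (0.11), Irf8 (0.33), Socs1 (0.31), Ptpn2 (−0.15) and the class II transactivator Ciita (−0.12). Usp18 was under the limit.

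Naive pluripotency factors were close in level but mostly somewhat lower in IFNγ medium. Of 16 tested, 8 were lower, 3 higher and 5 did not pass, with a median of −0.23 and a range from −0.92 to 0.41. Tcl1, a cofactor of Akt in ESCs, was the furthest apart, with 1348 and 1387 normalized counts in IFNγ medium and 2467 and 2721 in control high (log2 −0.92 ± 0.07, adjusted p = 5.15e-05). The Krüppel-like factors Klf5 (1115 and 1282 against 1554 and 1722, log2 −0.45 ± 0.09, adjusted p = 0.00495) and Klf2 (3213 and 3049 against 3806 and 4202, log2 −0.35 ± 0.07, adjusted p = 0.00489) were lower, the latter on chromosome 8. Prdm14, a repressor of primed genes, had 889 and 922 against 1168 and 1131 (log2 −0.34 ± 0.08, adjusted p = 0.00892). The groups did not overlap in these 4 genes (nor in 66.8% of all genes), which differed by 1.27- to 1.89-fold.

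Nanog had 10547 and 9973 normalized counts in IFNγ medium and 12268 and 11903 in control high (log2 −0.24 ± 0.06, adjusted p = 0.0173), Klf4 9169 and 9095 against 11527 and 10704 (log2 −0.28 ± 0.06, adjusted p = 0.00837), and Nr5a2 949 and 884 against 1066 and 1102 (log2 −0.24 ± 0.08, adjusted p = 0.0467). Zfp42 (Rex1) on chromosome 8 had 9438 and 10889.6 against 11186 and 12537 (log2 −0.22 ± 0.08, adjusted p = 0.0689). Each of these 4 calls was lost without a library. The adjusted p without control high library 1 was 0.171 for Nanog, 0.132 for Klf4 and 0.151 for Nr5a2. Without control high library 2 it was 0.24 for Nr5a2 and 0.418 for Zfp42, without IFNγ medium library 1 0.16 for Zfp42 and without IFNγ medium library 2 0.118 for Nr5a2. Reads of Klf4 may also come from the MKOS cassette, which the counts do not separate.

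Higher in IFNγ medium were Dppa3, a maternal factor that guards DNA methylation, with 1683 and 1543 against 1256 and 1178 (log2 0.41 ± 0.08, adjusted p = 0.00427), Tfcp2l1 with 22463 and 20488 against 19882 and 16596 (log2 0.24 ± 0.09, adjusted p = 0.0706) and Sall4 with 11556 and 12343 against 10252 and 10561 (log2 0.20 ± 0.06, adjusted p = 0.0385). Tfcp2l1 lost its call without control high library 2 (adjusted p = 0.573, limma), and Sall4 without control high library 1 (0.271) and library 2 (0.159). Esrrb, with 14741 and 14605 against 13773 and 14537, had a fold change of 0.05 ± 0.06 (SE), and Tbx3, with 3697 and 3561 against 3659.7 and 3482, of 0.02 ± 0.06. Gbx2 (0.05 ± 0.25), Fgf4 (0.16 ± 0.07) and the X-linked Nr0b1 (−0.27 ± 0.12) did not pass. When the spread was taken from all 24 libraries, Tcl1 and Klf5 still passed and the other 9 of these 11 calls did not. Between IFNγ X-GFP–high and control X-GFP–medium cells, 15 of these 16 factors were higher and 1 (Dppa3) lower, with a median of 1.14. Of all genes there, 37.6% were higher and 34.6% lower.

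Genes of general pluripotency were split. Of 16 tested, 8 were higher in IFNγ medium and 4 lower (all genes 17.4% and 19.9%), with a median of 0.20. With the spread of all 24 libraries, 2 were higher and 1 lower. Among the lower was Dppa5a, an RNA-binding protein of pluripotent cells, with 24961 and 21223 normalized counts in IFNγ medium and 34547 and 36471 in control high (log2 −0.62 ± 0.08, adjusted p = 0.00071). Higher were Trim71, a regulator of mRNAs and let-7 target, with 7644 and 8044 against 6147 and 5690.3 (log2 0.41 ± 0.06, adjusted p = 0.00165), and Zfp57, which protects imprints, with 11675 and 10923 against 8411 and 8961 (log2 0.38 ± 0.06, adjusted p = 0.00244). Dppa4 had 2625 and 2606 against 1908 and 2122 (log2 0.38 ± 0.07, adjusted p = 0.00407) and its partner Dppa2 861 and 956 against 641 and 735 (log2 0.40 ± 0.10, adjusted p = 0.014). Without control high library 1 the adjusted p of Dppa2 was 0.123. When the spread was taken from all 24 libraries, Dppa5a, Dppa4 and Dppa2 no longer passed.

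Genes of formative and primed pluripotency, the states that follow the naive one, also moved both ways. Of 18 tested, 6 were higher and 7 lower (all genes 17.4% and 19.9%). Fgf5, a marker of the primed epiblast, had 70.5 and 104.6 normalized counts in IFNγ medium and 15.5 and 22.4 in control high (log2 2.15 ± 0.30, adjusted p = 0.000885). T (brachyury), a mesoderm transcription factor, had 107 and 170.4 against 31.97 and 29.9 (log2 2.10 ± 0.26, adjusted p = 0.000435). Both were over 4-fold higher with no overlap (66.8% of all genes had none), and control cells of day 5 had means of 145 and 614. Lower were Sox3 on the X (21.3 and 24.05 against 56.7 and 65.1, log2 −1.39 ± 0.26, adjusted p = 0.00403), the Wnt effector Lef1 (185 and 219.6 against 448 and 492, log2 −1.22 ± 0.13, adjusted p = 0.000225) and Fgf15 (68.3 and 69.0 against 125 and 188, log2 −1.15 ± 0.22, adjusted p = 0.00447).

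Among enzymes and regulators of DNA methylation, 7 of 21 tested were higher in IFNγ medium (all genes 17.4%), 1 lower (all genes 19.9%) and 13 did not pass, with a median of 0.08. Dnmt3b, a de novo methyltransferase, had 5547 and 6835 normalized counts in IFNγ medium and 2907 and 3098 in control high (log2 1.04 ± 0.09, adjusted p = 8.61e-05). Its cofactor Dnmt3l had 11486 and 10645 against 6615 and 7128 (log2 0.69 ± 0.07, adjusted p = 0.000134). IFNγ medium was above control high in both, with no overlap (66.8% of all genes had none). In ESCs Dnmt3b had 2957 and 3093 and Dnmt3l 3421 and 3061, closer to control high. Gadd45a, a stress-induced gene linked to demethylation, had 854 and 809 against 548 and 533 (log2 0.62 ± 0.09, adjusted p = 0.000949). The call of Dnmt3l was lost with the spread of all 24 libraries.

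In the LIF and STAT3 pathway, 4 of 15 tested genes were higher and 5 lower, and without control high library 1 or 2 there were 1 and 2 lower. The receptor Lifr had 6279.6 and 6381 normalized counts in IFNγ medium and 3849 and 3955 in control high (log2 0.70 ± 0.06, adjusted p = 6.53e-05), and Stat3 had 3989 and 3942 against 2980.1 and 2902 (log2 0.43 ± 0.06, adjusted p = 0.000868). The feedback inhibitor Socs3, given above, was higher as well. Cish, another cytokine feedback gene, was lower with 44.8 and 44.96 against 88.7 and 89.7 (log2 −0.98 ± 0.21, adjusted p = 0.00789). Also lower were Pim1 (log2 −0.34, adjusted p = 0.0196, limma) and Pim3 (log2 −0.21, adjusted p = 0.0578, limma). Neither Pim1 nor Pim3 passed with the spread of all 24 libraries. Of ERK feedback genes and targets, 6 of 20 were higher and 9 lower, with 5 lower without control high library 1 and, with the spread of all 24 libraries, 3 higher and 4 lower. The ERK inhibitors Dusp6 (3103 and 3249.6 against 1493 and 1459, log2 1.10 ± 0.07, adjusted p = 1.53e-05) and Spry2 (1749 and 1794 against 819.8 and 861, log2 1.07 ± 0.07, adjusted p = 2.96e-05) were higher. The receptor Egfr (186 and 289 against 513 and 454, log2 −1.05 ± 0.19, adjusted p = 0.00278) and the cyclin Ccnd1 (1792 and 2211 against 3534 and 3328, log2 −0.78 ± 0.09, adjusted p = 0.000372) were lower. Over all genes 17.4% were higher and 19.9% lower, near the shares of the BMP and TGF-β targets that follow. Of 17 BMP and TGF-β targets 4 were higher and 3 lower (2 higher without control high library 2, 1 lower without its library 1, and 5 lower without IFNγ medium library 2), the latter led by the latent TGF-β binding protein Ltbp1 (738 and 1073 against 1691 and 1653, log2 −0.91 ± 0.14, adjusted p = 0.00149).

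Epithelial genes were the list with the largest share of lower members. Of 19 tested, 15 were lower in IFNγ medium (all genes 19.9%, and 9 with the spread of all 24 libraries) and 1 higher, with a median of −0.49. Dsp, the desmosome plaque protein, had 3116 and 4559 normalized counts in IFNγ medium and 9605 and 7502 in control high (log2 −1.17 ± 0.16, adjusted p = 0.000712). Ocln of tight junctions had 305 and 341 against 723 and 659 (log2 −1.10 ± 0.11, adjusted p = 0.000141), and the keratins Krt8 2876 and 4235 against 7520.5 and 5869.7 (log2 −0.93 ± 0.16, adjusted p = 0.00254) and Krt19 786 and 966 against 2064 and 1518 (log2 −1.02 ± 0.14, adjusted p = 0.000767). The transcription factors Ovol1 (91.8 and 154 against 301 and 228, log2 −1.14 ± 0.24, adjusted p = 0.00643) and Grhl2 (406 and 381 against 727 and 696, log2 −0.85 ± 0.10, adjusted p = 0.000287) were lower too. The groups did not overlap in these 6 genes, as in 66.8% of all genes tested. In control X-GFP–medium cells Krt8 had 17368 and 16554 and in ESCs 572 and 471, and Dsp 18147 and 19224 and 1852 and 1630.2, so IFNγ medium lay closer to ESCs than control high for both. Of the 19 genes, 14 were also lower in IFNγ X-GFP–high than in control X-GFP–medium cells (all genes there 34.6%).

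Trophoblast genes were lower in part, with 6 of 10 tested lower (3 without control high library 1, 2 with the spread of all 24 libraries), 1 higher and a median of −0.36. Lgals3, a galectin, had 450.1 and 507 normalized counts in IFNγ medium and 998 and 902 in control high (log2 −0.99 ± 0.10, adjusted p = 0.00015), and the transcription factor Gata2 129 and 159 against 262 and 241 (log2 −0.81 ± 0.16, adjusted p = 0.00469). Elf5, at low counts (20.2 and 30.3 against 65.0 and 41.6, log2 −1.04 ± 0.32, adjusted p = 0.036), did not pass without control high library 1 (adjusted p = 0.285, limma). Tfap2c, which also acts in naive cells, was the 1 higher member (1692 and 1733 against 1038 and 1176, log2 0.63 ± 0.08, adjusted p = 0.000548).

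Primitive endoderm genes were higher. Of 15 tested, 10 were higher in IFNγ medium, 1 (Hnf4a, lost without either control high library) lower and 4 did not pass, with a median of 0.73. The receptor Pdgfra had 413 and 445 normalized counts in IFNγ medium and 67.0 and 80.1 in control high (log2 2.53 ± 0.16, adjusted p = 2.08e-05), and the transcription factor Gata6, which opposes Nanog in the early embryo, 237 and 280.2 against 76.3 and 75.8 (log2 1.75 ± 0.17, adjusted p = 0.000122). Sox17 had 61.6 and 61.7 against 19.6 and 23.5 (log2 1.48 ± 0.26, adjusted p = 0.00297) and Sox7 19.03 and 23.003 against 6.19 and 4.27 (log2 1.83 ± 0.40, adjusted p = 0.00802), both at low counts. The endocytic proteins Cubn (66.1 and 89.9 against 17.5 and 11.7, log2 2.35 ± 0.31, adjusted p = 0.000616) and Dab2 (134 and 82.6 against 30.9 and 24.6, log2 1.90 ± 0.28, adjusted p = 0.00122) were higher as well. Ttr was under the limit. Pdgfra is also a fibroblast gene, and the fibroblast sum without Dcn and Fbln1 was 518 to 529.6 in IFNγ medium and 441 to 462 in control high, and its part in the result was not tested. In control X-GFP–medium cells Pdgfra had 79.1 and 87.8 and Gata6 87.0 and 79.5, so both control gates were at like levels.

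Collagens and matrix genes were higher in 12 of 18 tested (7 without control high library 2) and lower in 1, with a median of 0.67. Tnc (tenascin C) had 147 and 91.0 normalized counts in IFNγ medium and 45.4 and 23.5 in control high (log2 1.79 ± 0.34, adjusted p = 0.00384). Col3a1 had 28.0 and 44.96 against 9.28 and 12.8 (log2 1.62 ± 0.36, adjusted p = 0.00898), Col5a2 1763 and 2429.9 against 926 and 716 (log2 1.34 ± 0.15, adjusted p = 0.000271) and Col12a1 112 and 133 against 63.9 and 38.4 (log2 1.28 ± 0.26, adjusted p = 0.0057). Fibroblast feeders express these genes too. The Y-linked feeder genes summed to 2.24 to 12.5 normalized counts in IFNγ medium and 2.06 to 4.27 in control high. The part of feeders in the result was not tested. In control X-GFP–medium cells Col5a2 had 1998 and 1906, like IFNγ medium. Between IFNγ X-GFP–high and control X-GFP–medium cells, 3 of the 18 matrix genes were higher and 9 lower, with a median of −0.47. Of all genes there, 37.6% were higher and 34.6% lower. Integrins and laminins were split, with 7 of 21 higher and 8 lower (all genes 17.4% and 19.9%). Itga1, a collagen receptor, was higher with 153 and 155 against 14.4 and 17.1 (log2 3.21 ± 0.24, adjusted p = 3.31e-05), and the epithelial laminin chains Lamb3 (81.7 and 69.0 against 219.6 and 212, log2 −1.51 ± 0.17, adjusted p = 0.000296) and Lama3 (271 and 358 against 559.9 and 523, log2 −0.80 ± 0.14, adjusted p = 0.00269) were lower.

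Mesenchymal genes moved both ways, with 7 of 16 higher and 6 lower (4 and 3 without control high library 1, and 4 higher without IFNγ medium library 2). Lgals1 was higher with 1637 and 1991 normalized counts in IFNγ medium and 688 and 649 in control high (log2 1.43 ± 0.10, adjusted p = 2.96e-05), and Cd44, a hyaluronan receptor, lower with 229.5 and 434 against 703 and 665 (log2 −1.11 ± 0.23, adjusted p = 0.00599). Thy1 was lower as well with 48.1 and 47.1 against 106 and 128 (log2 −1.28 ± 0.21, adjusted p = 0.00195). Of 24 imprinted genes 6 were higher and 6 lower (all genes 17.4% and 19.9%). Peg10, expressed from the paternal allele, had 34045 and 34816 against 14699.7 and 13002 (log2 1.32 ± 0.07, adjusted p = 1.15e-05). The growth factor Igf2 and the noncoding RNA H19, which share a control region, differed in opposite directions, Igf2 with 503 and 894 against 2746 and 2378 (log2 −1.93 ± 0.20, adjusted p = 0.000206) and H19 with 4263 and 4434 against 2171 and 1732 (log2 1.16 ± 0.10, adjusted p = 6.08e-05). In control X-GFP–medium cells Igf2 had 6783 and 6734 and H19 4369 and 3807.

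Germline genes, which naive cells express at low levels, were lower in IFNγ medium. Of 27 tested, 15 were lower (8 with the spread of all 24 libraries) and 3 higher (5 without IFNγ medium library 2), with a median of −0.51. Sohlh2, a germ cell transcription factor, had 271 and 184 normalized counts in IFNγ medium and 692 and 875 in control high (log2 −1.80 ± 0.18, adjusted p = 0.000141). The meiotic cohesin Smc1b had 499 and 366 against 984 and 1167 (log2 −1.32 ± 0.14, adjusted p = 0.000224), and the RNA-binding protein Dazl 578 and 452 against 1175 and 1042 (log2 −1.11 ± 0.12, adjusted p = 0.000228). The X-linked Xlr3a had 85.1 and 52.3 against 240.3 and 196 (log2 −1.69 ± 0.24, adjusted p = 0.000895), and reads of Xlr3a, Xlr3b and Xlr4b are uncertain because the family is near-identical. In control X-GFP–medium cells Dazl had 197 and 208 and Sohlh2 107 and 105.3, so IFNγ medium lay between both control gates. All 15 lower genes were higher in IFNγ X-GFP–high than in control X-GFP–medium cells, where 26 of 27 were higher (all genes there 37.6%).

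Energy and growth genes showed smaller differences. Over all genes 17.4% were higher and 19.9% lower. All 7 tested of the 13 protein-coding genes of the mitochondrial genome were higher, with a median of 0.49. Of these, mt-Cytb had 32649.9 and 27954 normalized counts in IFNγ medium and 19394 and 19077 in control high (log2 0.65 ± 0.08, adjusted p = 0.000426). In the same libraries the whole mitochondrial genome took 18.2% to 19.2% of normalized counts in IFNγ medium and 15.0% to 15.1% in control high. Its protein-coding genes alone took 0.95% to 1.15% and 0.77% to 0.82%. In control X-GFP–medium cells the whole genome took 18.4% to 18.5% and its protein-coding genes 0.74% to 0.78%. In IFNγ X-GFP–high cells these were 13.5% to 16.3% and 0.93% to 1.18%. The part of either share in the result was not tested. Of 24 nuclear-encoded genes of the respiratory chain 1 was higher and 10 lower (3 and 4 lower without control high library 1 and 2), such as Uqcrc1 (8019 and 7809 against 10161 and 10295, log2 −0.37 ± 0.06, adjusted p = 0.00157). Glycolysis genes were split with 7 of 24 higher and 8 lower (3 lower without control high library 2 and 5 without IFNγ medium library 1). Pdk1, which diverts pyruvate from the mitochondria, was higher (18462 and 18553 against 10536 and 11438, log2 0.75 ± 0.06, adjusted p = 7.30e-05), and the X-linked Pgk1 lower (14203 and 13354 against 20008 and 22256, log2 −0.62 ± 0.07, adjusted p = 0.000317).

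Of 20 genes of translation and ribosome biogenesis, 6 were lower (all genes 19.9%), 14 did not pass, and without control high library 1 or 2 there were 2 and 1 lower, and without IFNγ medium library 2 there were 10. All 20 were higher in IFNγ X-GFP–high than in control X-GFP–medium cells (all genes there 37.6%). Eif4ebp1, a translation repressor on chromosome 8, was the furthest apart (4782 and 5007 normalized counts in IFNγ medium against 6901 and 7298 in control high, log2 −0.54 ± 0.06, adjusted p = 0.000307). In DNA replication and mitosis 4 of 24 were higher and 3 lower, under the shares of all genes (17.4% and 19.9%), and without control high library 2 it was 1 and 1, without control high library 1 the higher count was 1, and without IFNγ medium library 2 the lower count was 5. Among the lower was Cdt1 on chromosome 8 (5404 and 5943 against 7041 and 7697, log2 −0.38 ± 0.07, adjusted p = 0.00398). Of 18 p53 targets and CDK inhibitors 6 were higher and 4 lower, of which Cdkn2a and Cdkn2b no longer passed without either control high library. The CDK inhibitor Cdkn1a (p21) had 2236 and 2179 against 3561 and 3146 (log2 −0.60 ± 0.07, adjusted p = 0.000426), and Trp53inp1 15186 and 13049 against 9527 and 8933 (log2 0.61 ± 0.08, adjusted p = 0.000567). Of the 3 tested genes of the 2-cell state 1 was higher, which was Eif1a (adjusted p = 0.0993, limma), a translation factor that did not pass without either control high library (0.286 and 0.423) or without IFNγ medium library 2 (0.189).

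Over all genes, the 10 largest increases among genes with a mean of at least 100 in a group were Tat, Psmb8, Itga1, Psmb9, Cfap44, Themis, Pdgfra, Cebpd, Ccdc184 and Tbx20. Tat, tyrosine aminotransferase of amino acid breakdown on chromosome 8, had 104 and 177 normalized counts in IFNγ medium and 10.3 and 13.9 in control high (log2 3.40 ± 0.31, adjusted p = 0.000105). Tbx20, a cardiac T-box factor, had 1523 and 1736 against 309 and 329.8 (log2 2.34 ± 0.10, adjusted p = 3.08e-06), Cebpd, a transcription factor of acute responses, 199 and 239 against 45.4 and 35.2 (log2 2.42 ± 0.21, adjusted p = 7.77e-05), and Themis, known from thymocytes, 184 and 199.7 against 35.1 and 27.8 (log2 2.58 ± 0.21, adjusted p = 6.08e-05). Groups did not overlap in these by the rule that chose them. In ESCs Tbx20 had 5.90 and 10.5 and Tat 0 and 0, so for both control high lay closer to ESCs.

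The 10 largest decreases were Dcn, Usp26, Vsig8, Prss32, Shisa3, Gm20548, Pkp1, Exph5, Iqca and Myh13. Dcn (decorin), a matrix proteoglycan, had 166 and 242 normalized counts in IFNγ medium and 2176 and 1668 in control high (log2 −3.25 ± 0.17, adjusted p = 8.59e-06), with 5019.6 and 4472 in control X-GFP–medium and 41.1 and 119 in IFNγ X-GFP–high cells. Usp26, an X-linked germline deubiquitinase, had 56.0 and 46.01 against 385 and 401 (log2 −2.93 ± 0.17, adjusted p = 1.32e-05), with 25.7 and 19.6 and 812 and 704 in those gates. Dcn was thus lower in both IFNγ gates than in both control gates, while Usp26 was higher in both high gates than in both medium gates. Pkp1, a desmosome protein, had 232 and 478 against 1755 and 1467 (log2 −2.27 ± 0.26, adjusted p = 0.000276), and Exph5, a Rab effector of skin, 52.6 and 68.0 against 300.1 and 278 (log2 −2.25 ± 0.18, adjusted p = 5.79e-05). Gm20548 is annotated as antisense, and with the strand setting of the counting not stated its reads are uncertain. Dcn lies at chr10:97479609-97518143 and Usp26 at chrX:51753959-51801233 on GRCm38/mm10.

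In IFNγ X-GFP–high against control X-GFP–medium cells, arm and gate change in the same sense, and no library is shared with the comparison described. There 11315 of 15674 genes tested differed (72.2%), of which 5898 were higher (37.6%) and 5417 lower (34.6%), with a median size of 0.71 among called genes. Of 15374 genes tested in both, 1114 were higher in both comparisons, 41.7% of those higher in IFNγ medium and 19.11% of those higher in IFNγ X-GFP–high cells. Lower in both were 1639, 52.8% and 30.9%. Higher in IFNγ medium but lower in IFNγ X-GFP–high cells were 756 (28.3% and 14.3%), and the reverse held for 990 (31.9% and 17.0%). Among all genes tested in both, 37.9% were higher and 34.5% lower in IFNγ X-GFP–high cells, so the 41.7% lies close to that background. These counts describe signs and were not tested.

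Of genes higher with IFNγ in both comparisons, Pros1 (protein S of coagulation) had 3005 and 2609 normalized counts in IFNγ medium, 946 and 964 in control high, 2502 and 1982 in IFNγ X-GFP–high and 718 and 702 in control X-GFP–medium cells (log2 1.55 ± 0.08, adjusted p = 8.59e-06 in the first comparison, 1.65 and adjusted p = 5.84e-07 in the second). Limch1, an actomyosin regulator, had 317 and 311, 107 and 85.4, 271 and 189.5 and 106 and 83.6 in the same order. Psmb9, Tnc and Ccdc39 were the others of the 5 with the largest smaller change. Lower in both were Dcn, Vsig8, Prss32, Shisa3 and Pkp1. Vsig8 had 28.0 and 59.6, 346 and 249, 11.4 and 23.1 and 740.2 and 729.

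Of genes with opposite signs, Slc39a8, a zinc and manganese importer, had 1039 and 944, 256 and 237, 189.6 and 172 and 845 and 841 normalized counts in that order (log2 2.00 ± 0.10, adjusted p = 8.59e-06 in the first comparison, −2.22 and adjusted p = 9.48e-08 in the second). Enpp2 (autotaxin) had 118 and 134, 27.8 and 22.4, 20.6 and 38.1 and 81.0 and 100.2. Both were higher in the medium gates, as were Tspan10, Chst1 and Fndc4. Higher in the high gates were Usp26, Gm20548, Iqca, Myh13 and 1700013H16Rik. Myh13, a muscle myosin heavy chain, had 51.5 and 41.8, 194 and 249.8, 295 and 272 and 33.6 and 42.3, and in ESCs 313 and 343.

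X-linked genes were lower in IFNγ medium. Of 595 tested, 230 (38.7%) were lower and 56 (9.41%) higher, against 19.3% and 17.8% of 14783 autosomal genes, and the median log2 fold change was −0.21 against −0.0045. The gates were set on an X-linked reporter, and gate and arm cannot be told apart here. Hprt, the locus of the reporter, had 679.6 and 609.6 normalized counts in IFNγ medium and 1097 and 1139 in control high (log2 −0.80 ± 0.09, adjusted p = 0.000249). The X-linked share of all normalized counts was 3.11% and 3.03% in IFNγ medium and 3.41% and 3.48% in control high, with no overlap. The means were 3.07 ± 0.057 and 3.45 ± 0.050 (SD, n = 2), and the exact permutation test gave p = 0.33, the smallest p that 2 against 2 allow. Between them and the 4.68% of ESCs lay IFNγ X-GFP–high cells with 3.82%, and control X-GFP–medium cells had 2.64%.

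In the X-inactivation center, 3 of 7 tested genes were higher in IFNγ medium and 1 lower. Xist, the RNA that coats the silent X, had 1557 and 1643 normalized counts in IFNγ medium and 1652 and 1357 in control high, with overlapping libraries and a fold change of 0.10 ± 0.09 (SE, adjusted p = 0.487, limma). Its level was 3569 and 3634 in control X-GFP–medium and 795 and 981 in IFNγ X-GFP–high cells. Tsix, the antisense repressor of Xist that is truncated on X mus, was lower with 352 and 314 against 473 and 564 (log2 −0.64 ± 0.12, adjusted p = 0.00448), and as Tsix and Xist overlap on opposite strands, reads in the overlap are uncertain. Ftx, a noncoding activator of Xist, had 401 and 371 against 193 and 209 (log2 0.94 ± 0.13, adjusted p = 0.00069), and Rlim (Rnf12), a ligase that activates Xist, 19393 and 18332 against 13659 and 12759.8 (log2 0.51 ± 0.07, adjusted p = 0.000533). Chic1 (−0.10) and Nap1l2 (0.18) did not pass.

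The X mus proportions, the authors' 1 value per gene and population, were lower in IFNγ medium in 284 of 316 genes, higher in 28 and equal in 4. The median over genes was 0.236 in IFNγ medium and 0.336 in control high, with 0.110 in control X-GFP–medium cells, 0.396 in IFNγ X-GFP–high cells and 0.481 in ESCs. The median of the difference per gene was −0.084, with quartiles of −0.129 and −0.045. Genes under 0.1 numbered 60 in IFNγ medium and 20 in control high. The read depth behind each proportion is unknown and there are no replicate columns, so no test was made. At Hprt the proportions were 0.365 and 0.362, while Dkc1, a pseudouridine synthase subunit, had 0.0715 against 0.219 and Zfp185, an actin-binding protein, 0.233 against 0.368. Levels at the reporter locus thus differed by 1.74-fold in total counts with nearly equal allelic shares. Xist came from X mus in both (0.983 and 0.995). Of X-linked genes that escape inactivation 2 of 8 were higher (Mid1 and Utp14a) and 1 lower (Pbdc1). Without control high library 1 none of these 3 passed limma, with adjusted p of 0.227, 0.385 and 0.184. Of a list of X-linked genes studied in pluripotent cells 1 of 10 was higher and 4 lower, among them Hprt and Zfp185 (282 and 227 against 401 and 423, log2 −0.70 ± 0.13, adjusted p = 0.00434).

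**Figure D3:**
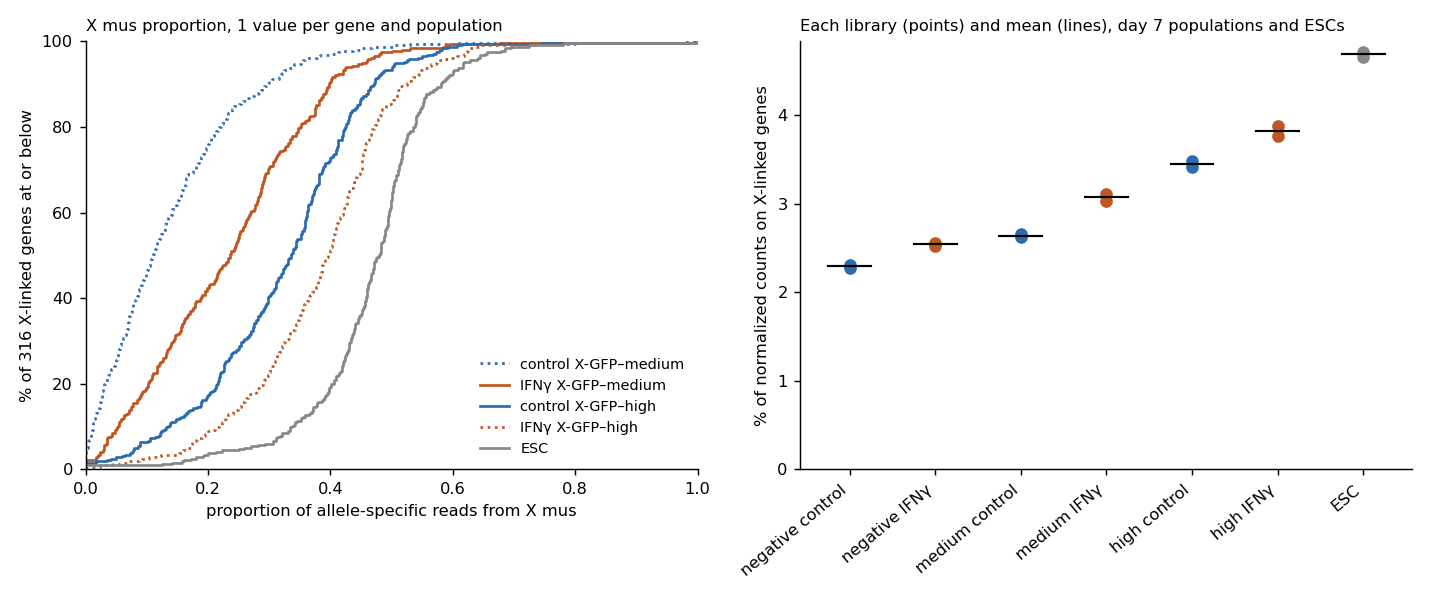
Left, percent of 316 X-linked genes at or below each X mus proportion, 1 line per population (authors' value per gene). Right, percent of normalized counts on X-linked genes in each library (points, lines are means). IFNγ medium lies between control X-GFP–medium and control high cells in both panels, at medians of 0.236 and means of 3.07%.

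Chromosome 8 stood apart from the other autosomes, which was noticed after the values were seen. Of its 828 tested genes, 403 (48.7%) were lower in IFNγ medium and 45 (5.43%) higher, with a median of −0.26. On the 18 other autosomes 12.8% to 22.4% were lower and 13.9% to 22.8% higher, with medians from −0.06 to 0.05. All 13 windows of 10 Mb along chromosome 8 had a negative median, from −0.38 to −0.13. In the comparison of IFNγ X-GFP–high with control X-GFP–medium cells its median was −0.20. Without chromosome 8 genes, 2661 genes were higher and 2693 lower of 14763 tested.

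Against ESCs, the median log2 ratio of chromosome 8 genes minus that of the other autosomes was −0.39 and −0.30 in IFNγ medium and −0.07 and −0.04 in control high. It was −0.29 in IFNγ X-GFP–high, −0.08 in control X-GFP–medium, −0.26 in IFNγ X-GFP–negative and −0.06 in control X-GFP–negative cells. At day 5 it was −0.44 with IFNγ and −0.27 in control cells, and at day 2 and in NPCs it was between −0.04 and 0.02. At day 7 every IFNγ library was thus below every control library in each gate. Values of Klf2, Zfp42, Irf2, Cdt1 and Eif4ebp1, which were lower, and of Nlrc5 and Tat, which were higher, stand on this chromosome. Their fold changes stand beside a chromosome median of −0.26, as for Zfp42 with −0.22. The copy number of chromosome 8 was not measured, and its part in the result was not tested.

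**Figure D4:**
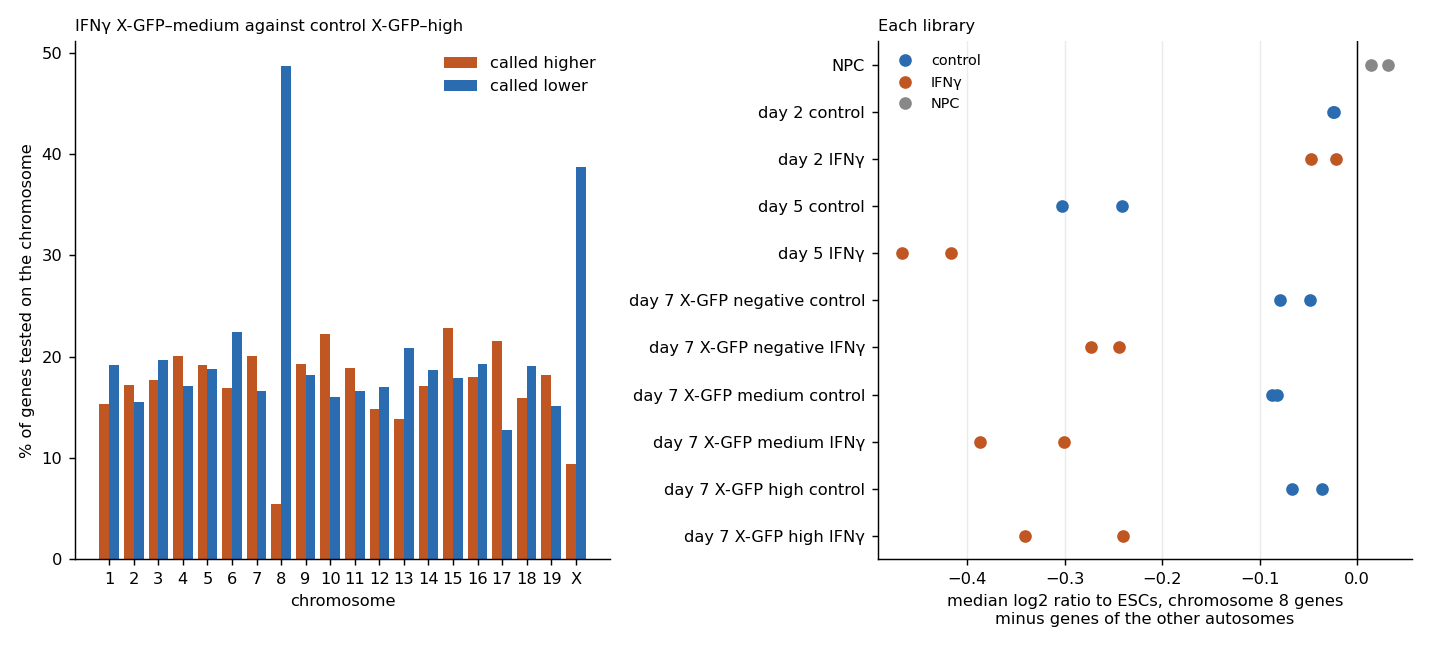
Left, percent of tested genes per chromosome called higher or lower in IFNγ medium than in control high. Right, median log2 ratio to ESCs of chromosome 8 genes minus that of the other autosomes, 1 point per library. Chromosome 8 has 48.7% lower genes, and the IFNγ libraries of day 7 lie to the left of all control libraries of day 7.

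Over the 15591 genes, the Euclidean distance to the mean of the ESC libraries on log2(normalized count + 1) was 159 and 157 in IFNγ medium and 156 and 149 in control high. The means were 158 ± 1.47 and 152.5 ± 4.96 (SD, n = 2), a ratio of 1.04. The libraries of control high differed from each other by more than the means of the groups did. Control X-GFP–medium cells were at 197 and IFNγ X-GFP–high cells at 122. Of all tested genes 6818 (43.7%) were closer to ESCs in IFNγ medium than in control high. Of genes called lower in IFNγ medium 1505 (48.4%) were closer to ESCs there, and of genes called higher 810 (29.8%).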

How the data were processed

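The authors deposited signal values in the form of normalized counts, 1 per gene and library, made from rRNA-depleted, stranded, paired-end total RNA libraries aligned with STAR and WASP to mm10 with CAST/EiJ and 129S1/SvImJ SNPs masked, counted with HTSeq 0.6.1 and divided by DESeq2 size factors. They also deposited X mus proportions, 1 value per gene and population, and whether libraries were pooled for them was not stated. The values were 100% whole multiples of what 1 read is worth (tolerance 0.01), so whole reads were recovered, and 95.2% of identifiers matched the GENCODE annotation of GRCm38/mm10. The strand setting of the counting is not given in the sources used here.

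Genes with a mean above 10 in the 4 libraries were tested with limma 3.58.1 in R 4.3.3 (empirical Bayes with a trend, two-sided) on log2(normalized count + 1), a scale that understates changes of low genes, with Benjamini-Hochberg adjustment over all genes tested and a threshold of 0.1. Errors after ± are standard errors of the log2 fold change or, where marked, SDs of 2 libraries. DESeq2 1.42.0 and edgeR 4.0.16 on recovered reads, other scalings and filters, a spread from all 24 libraries, and fits without each library were alternatives. Each list was described by its counts and its called members with the largest fold changes, and single genes by the largest changes over all genes with a mean of at least 100 in a group. Scripts were tested on simulated data. The members and lists were chosen with earlier results of these data known. Sequences are from RefSeq windows of GRCm38.p6. Some members of the lists are counted but their values are not reported here.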

Additional observations from a re-analysis of the deposited data

How the results depend on the processing

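Of 200 named genes 183 passed, and 125 of these passed under each alternative they were in, 13 or, for the 10 on chromosome 8, 12. Called genes changed sign in 0 cases, and 6 of the 17 that did not pass (Tbx3, Gbx2, Ciita, Xist, Chic1 and Nap1l2) did in at least 1. Of the counts over all genes, 1979 were lower with DESeq2 on recovered reads in place of 3110, and without single libraries 1637 to 3132 were higher and 1783 to 3543 lower. With DESeq2 1933 genes were higher in place of 2718, and without the filter on low values 2152 were higher and 2331 lower. The fit without chromosome 8, chosen after seeing the data, gave 2661 higher and 2693 lower. The replicate numbers are only a shared number (correlation of deviations −0.02), and with the replicate block 2653 genes were higher and 3083 lower. The median of X-linked genes was −0.25 both after rescaling to the same total and as a mean, and the difference of the X-linked share was −0.28 percentage points without mitochondrial genes in the denominator. The X mus difference was −0.088 as a mean and −0.084 over genes with a mean of at least 100. The cause of each shift was not tested. Genes at few reads, such as Tgtp2, H2-Aa and Elf5, have wide errors at this depth.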
